A study of Arabidopsis thaliana with 16 samples.

Results

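The minor antenna of photosystem II was examined through the 5 Arabidopsis genes that encode it, LHCB4.1, LHCB4.2, LHCB4.3, LHCB5 and LHCB6, which were taken by their locus identifiers from the 28598 genes of the count table. RNAseq libraries had been made from suspension cultures derived from Columbia (Col-0) leaves, 4 from dark-grown cells and 4 from light-grown cells. The dark-grown cells were kept under foil for 2 weeks, whereas the light-grown cells received constant light. All were passaged every 7 days and shaken in the same medium with sucrose and the auxin 2,4-D. The libraries came from 8 replicate cultures, 4 of each condition, and both the labels and the main text place their sampling at 16 hours. The methods also name a sampling of light-grown cells 5 days after subculture, without saying which samples it gave. They add that cultures were run in duplicate without naming pairs, so p-values measure the spread between these libraries. The dark-grown libraries held 29916585 to 32688689 counts and the light-grown libraries 18363149 to 37813411 counts.

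In chloroplasts, light-harvesting proteins bind chlorophyll a, chlorophyll b and xanthophylls and pass excitation energy to the photosystem reaction centres. Around photosystem II, trimers of the major antenna (LHCB1, LHCB2 and LHCB3) are joined to the core by monomeric minor antenna proteins, namely CP29 encoded by the LHCB4 genes, CP26 encoded by LHCB5 and CP24 encoded by LHCB6. Transcripts of these nuclear genes are classical light-induced messages of green plant tissue. The proteins are made in the cytosol, imported into the chloroplast and inserted in the thylakoid membrane.

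All 5 genes are nuclear and each lies on a different chromosome of TAIR10.1, whose RefSeq annotation was used for names, coordinates and sequence. LHCB4.1 (AT5G01530) lies at chr5:208866-210548 and LHCB4.2 (AT3G08940) at chr3:2717557-2718923, both on the forward strand. LHCB4.3 (AT2G40100) lies at chr2:16745628-16747424 and LHCB5 (AT4G10340) at chr4:6408007-6409849, also on the forward strand. LHCB6 (AT1G15820) lies at chr1:5446462-5447880 on the reverse strand. Their coding sequences span 873 bases in LHCB4.1, 864 in LHCB4.2, 831 in LHCB4.3, 843 in LHCB5 and 777 in LHCB6. LHCB5 has 6 coding exons and each of the other genes has 2.

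The 3 CP29 genes are the closest relatives of the group. The coding sequences of LHCB4.1 and LHCB4.2 were identical at 81.9% of aligned bases, those of LHCB4.2 and LHCB4.3 at 73.0% and those of LHCB4.1 and LHCB4.3 at 71.8%, whereas pairs with LHCB5 or LHCB6 reached 60.5% to 65.0%. The longest run shared by any pair was 23 bases, in LHCB4.1 and LHCB4.2. None of the 50-base exon windows of the 5 genes occurs elsewhere in the genome, so an exact match of the sequenced length within their exons is unique. The last 44 bases of LHCB4.2 overlap the oppositely oriented AT3G08943, and LHCB6 overlaps AT1G15810 over 103 bases and contains the oppositely oriented non-coding gene AT1G05207. The use of strand in counting is not given in the sources used here, so reads from these stretches are uncertain for LHCB4.2 and LHCB6.

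Short stretches of the promoters are shown because the 5 genes changed in the same direction in the comparison that follows. Each was searched for letters associated with light and clock regulation. The window ran from 250 bases before the annotated start to 50 bases after it. Capitals mark the motif, each stretch reads 5′ to 3′ on the strand of its gene, and the build is TAIR10.1.
LHCB4.1 G-box, chr5:208780-208809, forward strand: aagaccgcagtaCACGTGgcttcttctaac
LHCB6 G-box, chr1:5447987-5448016, reverse strand: taaattaatttcCACGTGtcattttatttt
LHCB6 I-box, chr1:5447949-5447978, reverse strand: aatttagatttaGATAAGtaaagtattaga
LHCB4.2 I-box, chr3:2717536-2717565, forward strand: gagctttttataGATAAGgctgattttgtt
LHCB4.3 CCAAT box, chr2:16745404-16745433, forward strand: caaaaccaaagtATTGGcctaaaatatacc
LHCB5 CCAAT box, chr4:6407990-6408019, forward strand: atccaacaaaaaCCAATctaaaagccacat
The G-box, CACGTG, which basic helix-loop-helix and bZIP factors bind, stood in the windows of LHCB4.1 and LHCB6, and in 7.68% of the 27443 such windows of protein-coding genes. The I-box, GATAAG, a letter string known from light-regulated promoters, stood in LHCB4.1, LHCB4.2 and LHCB6, and in 14.6% of all windows. The CCAAT box stood in all 5 windows, on the opposite strand in the LHCB4.3 stretch shown, and in 51.6% of all windows. Neither the evening element AAAATATCT (2.82% of all windows) nor the CCA1 site AAAAATCT (7.88%) was found in any of the 5. Both strands were searched for every motif. No listed motif contains another. These matches describe letters and do not establish a binding site.

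All 5 minor antenna genes were lower in dark-grown cells, and the fitted log2 fold changes ran from -2.16 in LHCB4.3 to -6.14 in LHCB5. In a quasi-likelihood test (edgeR), adjusted by Benjamini-Hochberg over all 19129 genes tested, each of the 5 had an adjusted p-value under 0.05, against 6.31% of tested genes called lower and 3.69% called higher in the dark. In each of the 5, every dark-grown library also lay below every light-grown library, a separation in that direction seen in 10.1% of tested genes, with the opposite separation in 6.50%. The median log2 fold change, dark minus light, was -3.35 over the 5 genes and 0.00 over all genes tested. Among all tested genes, 1207 were called lower in the dark. DESeq2, run on every gene with any count and with its own filtering, called 1871 lower. With libraries left out, edgeR filtered the genes anew. Its count of lower genes was 761 without Dark-RNA3, 796 without Light-RNA2 and 689 without Light-RNA3. The 705 genes called higher became 1485 with DESeq2, between 273 and 389 without any one of Dark-RNA3, Dark-RNA4, Light-RNA1, Light-RNA2 or Light-RNA3, 1204 without Dark-RNA2 and 1191 without Light-RNA4. With both Light-RNA4 and Dark-RNA2 left out, 2431 genes were called lower and 2419 higher. In bulk RNA, fewer cells carrying a transcript and less transcript per cell cannot be told apart.

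**Figure D1:**
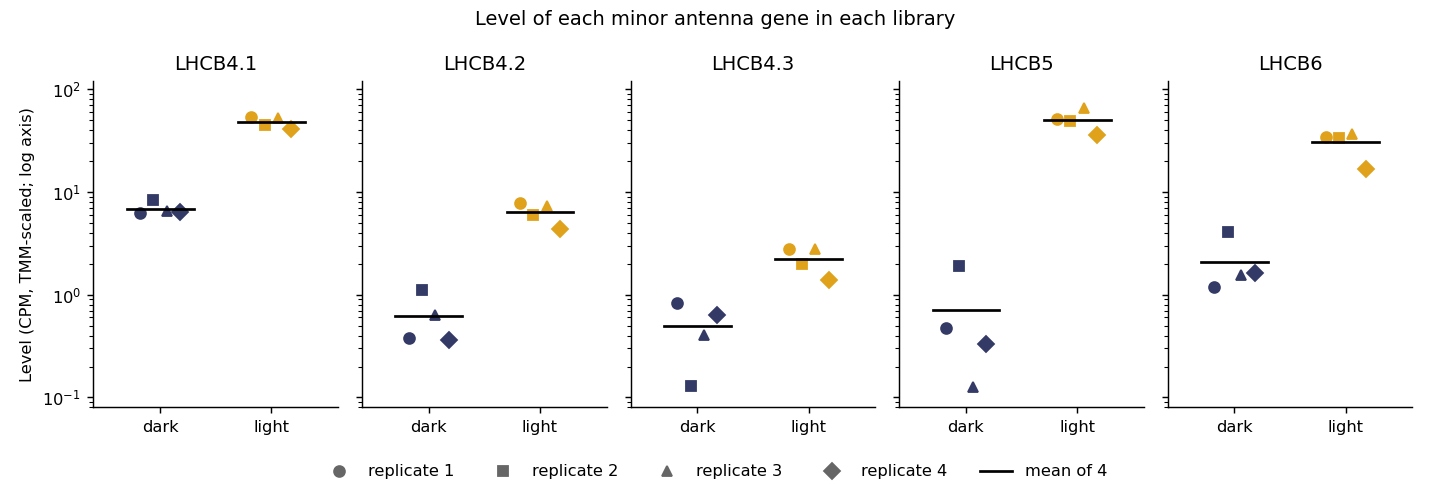
Level of each gene in each library in CPM (counts scaled by library total and TMM factors, logarithmic axis), with dark-grown libraries to the left of light-grown ones, one symbol per replicate number and a line at the mean of 4. No dark-grown library reaches the light-grown range of the same gene; the gap is widest for LHCB5, and the dark-grown values of LHCB4.1 lie close together, between 6.20 and 8.27 CPM.

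LHCB4.1 had the highest level of the CP29 genes in every library. It stood at 6.20, 8.27, 6.59 and 6.33 CPM in Dark-RNA1 to Dark-RNA4, against 53.1, 45.3, 52.9 and 40.7 CPM in Light-RNA1 to Light-RNA4. CPM here divide each count by the TMM-scaled size of its library. The lowest light-grown library lay 4.92 times above the highest dark-grown library. The means were 6.85 ± 0.962 CPM in the dark and 48.0 ± 6.11 CPM in light (SD, n = 4 each). The log2 fold change was -2.81 with a standard error of 0.14 (adjusted p = 4.33e-05 in this edgeR test), or 7.01-fold lower in the dark. Of the 5 genes it had the smallest coefficient of variation in both conditions, 14.0% in the dark and 12.7% in light.

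LHCB4.2, the paralog nearest to LHCB4.1, was expressed at a lower level. It had 0.381, 1.11, 0.628 and 0.365 CPM in the dark-grown libraries (12, 34, 20 and 11 counts), against 7.87, 5.94, 7.28 and 4.40 CPM in the light-grown libraries. Dark-RNA2 was the highest of the dark-grown libraries and Light-RNA4 the lowest of the light-grown ones, with a 3.97-fold gap between them. The log2 fold change was -3.35 with a standard error of 0.40 (adjusted p = 0.00142 in the same edgeR test), or 10.2-fold lower in the dark.

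LHCB4.3 encodes a shorter CP29 form, which in Arabidopsis is known for its response to strong light. Its level was 0.827, 0.130, 0.408 and 0.630 CPM in the dark-grown libraries, from 26, 4, 13 and 19 counts. The light-grown libraries had 2.80, 1.99, 2.78 and 1.38 CPM, from 108, 67, 68 and 26 counts. The groups were separate but near each other, with Light-RNA4 1.67 times above Dark-RNA1. The log2 fold change was -2.16 with a standard error of 0.52 (adjusted p = 0.0327 in the same edgeR test), or 4.47-fold lower in the dark. This call was lost when any one of Dark-RNA3, Dark-RNA4, Light-RNA1, Light-RNA2 or Light-RNA3 was left out (adjusted p up to 0.105 in the same edgeR test, over log2 fold changes of -2.51 to -1.84 with each of the 8 libraries left out).

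LHCB5, the gene for CP26, had the largest fall of the group. The dark-grown libraries held 0.477, 1.92, 0.126 and 0.331 CPM, from 15, 59, 4 and 10 counts. In the light-grown libraries it had 50.9, 49.5, 65.1 and 36.1 CPM, from 1959, 1666, 1593 and 681 counts. Even the highest dark-grown library, Dark-RNA2, lay 18.8-fold below the lowest light-grown library. The log2 fold change was -6.14 with a standard error of 0.68 (adjusted p = 0.0011 in the same edgeR test), or 70.4-fold lower in the dark, and 52 of the tested genes had a lower log2 fold change. The dark-grown values differed by 15.3-fold among themselves, and without Dark-RNA2 the log2 fold change was -7.32.

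LHCB6 encodes CP24, which is found in land plants and links the trimers to the core. It stood at 1.18, 4.04, 1.54 and 1.62 CPM in the dark-grown libraries (37, 124, 49 and 49 counts), against 34.3, 33.3, 36.9 and 16.7 CPM in the light-grown libraries. Dark-RNA2 was high and Light-RNA4 low within their groups, which stayed 4.14-fold apart. The log2 fold change was -3.85 with a standard error of 0.44 (adjusted p = 0.00133 in the same edgeR test), or 14.5-fold lower in the dark. AT1G15810, the coding gene that overlaps the end of LHCB6, had a log2 fold change of 0.00 (adjusted p = 0.983 in the same edgeR test), and AT3G08943, which overlaps LHCB4.2, had -0.17 (adjusted p = 0.486). Both were far more abundant in the dark than the member they overlap, at 1360 to 1593 counts for AT1G15810 and 4369 to 5639 for AT3G08943. AT1G05207 was not among the counted genes. The part of these genes in the dark-grown counts of LHCB6 and LHCB4.2 was not tested.

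For each of the 5 genes, the exact two-sided permutation test of log2(CPM + 0.5) gave p = 0.0286, the smallest that 4 libraries against 4 allow. Full separation of the groups fixes this value, so the test adds nothing to the separation given above. That separation was seen in 10.1% of tested genes in the same direction and in 6.50% in the opposite one.

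Levels were set side by side between genes per kilobase of annotated exon. For LHCB4.2 the exons merged over its 2 annotated transcripts cover its whole span of 1367 bases. Its length therefore includes the intron between its 2 coding exons, which lowers its level and share per kilobase. In dark-grown cells LHCB4.1 came first at 4.91 ± 0.689 CPM per kb (SD, n = 4), and its range did not overlap that of any other member. LHCB6 followed at 1.74 ± 1.09 CPM per kb, above LHCB5 in each of the 4 dark-grown libraries although their ranges overlapped. LHCB5 at 0.514 ± 0.589, LHCB4.2 at 0.454 ± 0.253 and LHCB4.3 at 0.344 ± 0.207 CPM per kb (SD, n = 4 each) did not differ beyond their spread, and each neighbour in this order led in 2 of the 4 dark-grown libraries. In light-grown cells LHCB5 (36.3 ± 8.54 CPM per kb) and LHCB4.1 (34.4 ± 4.38 CPM per kb, SD, n = 4 each) could not be ordered, each being the higher in 2 libraries. LHCB6 stood at 25.2 ± 7.63 CPM per kb, below LHCB4.1 in each of the 4 light-grown libraries, and LHCB4.2 at 4.66 ± 1.13 and LHCB4.3 at 1.55 ± 0.474 CPM per kb were separate from all others (SD, n = 4 each).

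The make-up of the minor antenna message differed between conditions. LHCB4.1 took 67.2%, 51.2%, 69.1% and 66.5% of the summed level per kilobase in Dark-RNA1 to Dark-RNA4, against 34.3%, 32.0%, 30.9% and 39.8% in Light-RNA1 to Light-RNA4. LHCB5 took 5.19%, 12%, 1.32% and 3.50% in the dark-grown libraries and 33.0%, 35.1%, 38.2% and 35.5% in the light-grown libraries. For both genes the groups were far apart, in opposite directions. Because the shares of a library add to a fixed total, the smaller LHCB5 share in the dark by itself raises the other shares. The level of LHCB4.1 was 7.01-fold lower in the dark. The share of LHCB6 lay between 14.8% and 29% in the dark and between 19.0% and 27.2% in light, and that of LHCB4.2 between 3.91% and 7.01% in the dark and between 4.28% and 5.19% in light, so these shares overlapped. LHCB4.3 took 0.778% to 8.63% in the dark, against 1.3% to 1.75% in light, with Dark-RNA2 alone below the light-grown range. The summed level of the 5 genes, not divided by length, was 10.8 ± 3.13 CPM in the dark and 137 ± 28.0 CPM in light (SD, n = 4 each).

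**Figure D2:**
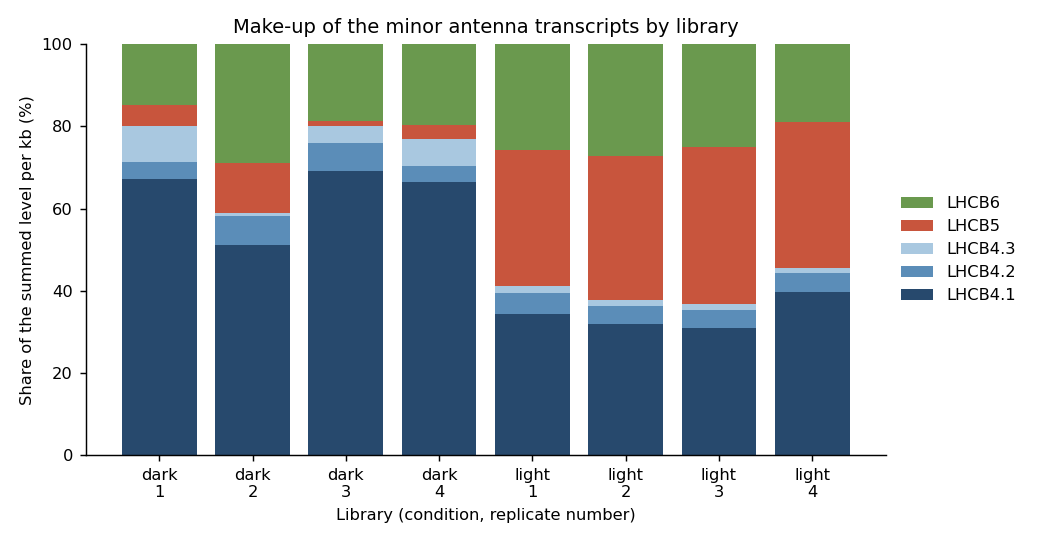
Share of each gene in the summed level per kilobase of the 5 genes, as a stacked bar for each library, with the 4 dark-grown libraries on the left and the 4 light-grown on the right. LHCB4.1 fills over 50% of every dark-grown bar and less than 40% of every light-grown bar, while LHCB5 takes at most 12% in the dark and at least 33.0% in light.

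To ask whether the genes kept their proportions to each other, 5 log2 ratios of counts were formed within each library, which do not depend on library size. P-values are from exact two-sided permutation tests, raw and then adjusted over the 5 ratios by the Benjamini-Hochberg method. The smallest raw value possible is 0.0286. LHCB5 and other genes enter more than 1 ratio, so the ratios are not independent of each other, and each adjusted value depends on the other ratios. The ratio of LHCB4.1 and LHCB4.2 together to LHCB5 was 13.8, 4.88, 57.5 and 20.2 in the dark-grown libraries, against 1.2, 1.04, 0.925 and 1.25 in the light-grown libraries. The CP29 messages thus outnumbered the CP26 message in every dark-grown library and were close to it in every light-grown one. The log2 ratio was 3.86 higher in the dark (exact permutation p = 0.0286, adjusted p = 0.0476).

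LHCB5 also fell further than LHCB6. The ratio of LHCB5 to LHCB6 was 0.405, 0.476, 0.0816 and 0.204 in the dark-grown libraries and 1.48, 1.49, 1.77 and 2.16 in the light-grown libraries. LHCB5 thus had fewer counts than LHCB6 in every dark-grown library and more in every light-grown one. The mean log2 ratio was -2.01 ± 1.09 in the dark and 0.77 ± 0.26 in light (SD, n = 4 each), a difference of -2.78 (exact permutation p = 0.0286, adjusted p = 0.0476).

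For the CP29 paralogs neither ratio passed the test with all 8 libraries. The log2 ratio of LHCB4.1 to LHCB4.2 was 3.57 ± 0.55 in the dark and 2.94 ± 0.19 in light (SD, n = 4 each), and the groups overlapped because Dark-RNA2, at 2.88, lay within the light-grown range (exact permutation p = 0.0857, adjusted p = 0.107). The log2 ratio of LHCB4.3 to the sum of both was -4.11 ± 1.34 in the dark and -4.64 ± 0.27 in light (SD, n = 4 each; exact permutation p = 0.429, adjusted p = 0.429). Of the dark-grown libraries, Dark-RNA1, Dark-RNA3 and Dark-RNA4 lay above the light-grown range of this ratio and Dark-RNA2, at -6.00, lay below it. Its difference was 0.53 with all libraries, 1.16 without Dark-RNA2 (exact permutation p = 0.0571, the smallest that 3 against 4 allow) and 0.15 without Dark-RNA1. For LHCB4.1 to LHCB4.2 the difference was 0.63 with all libraries and 0.86 without Dark-RNA2 (exact permutation p = 0.0571). It was 0.47 without Dark-RNA4 (exact permutation p = 0.171).

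**Figure D3:**
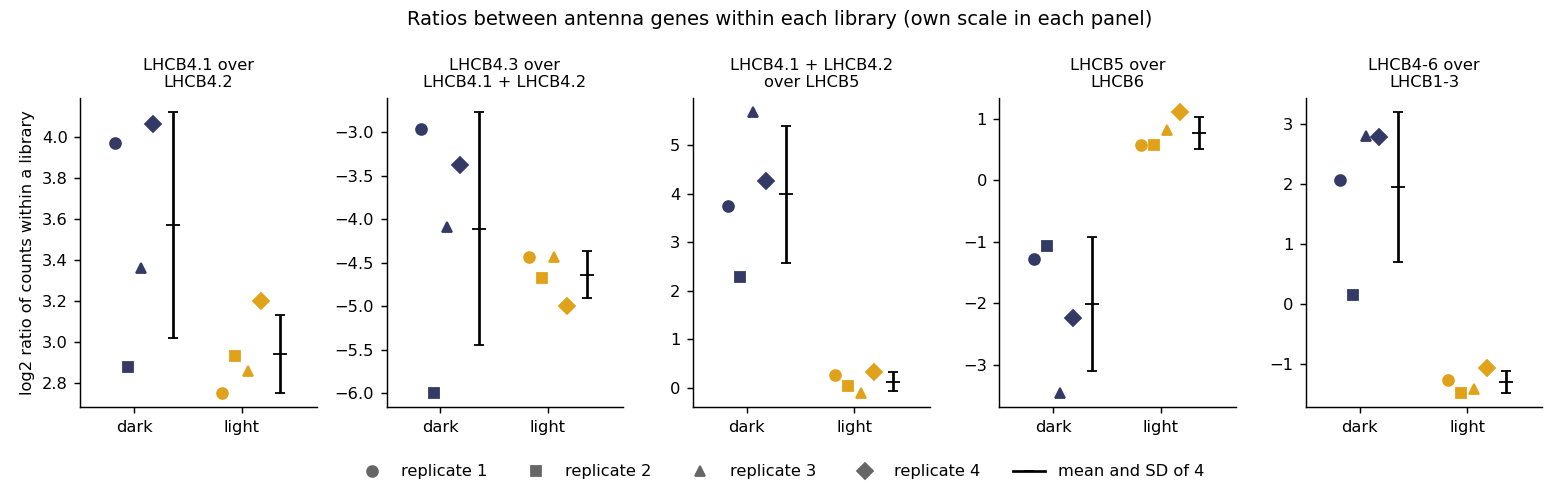
Log2 ratios of counts within a library for 5 pairs of genes or gene sums, each panel on its own scale, with dark-grown libraries to the left of light-grown ones and bars for the mean and SD of 4. Both panels with LHCB5 and the panel of LHCB4 to LHCB6 over LHCB1 to LHCB3 show separate groups, whereas both panels of LHCB4 paralogs alone show overlap.

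As a sum, the minor antenna genes also fell less than the major antenna genes, but gene by gene the order was mixed. By fitted log2 fold change LHCB5 (-6.14) fell further than LHCB1.5 (-5.75), LHCB3 (-4.54) and LHCB1.2 (-3.36). LHCB2.2 (-9.96), LHCB1.3 (-9.22), LHCB1.1 (-7.64) and LHCB2.1 (-7.16) fell further than every minor antenna gene. LHCB4.1 had the most counts of the minor antenna genes in each dark-grown library, with 195, 254, 210 and 191. The ratio of the counts of the 5 genes to those of the LHCB1, LHCB2 and LHCB3 genes was 4.19, 1.11, 7.05 and 7.00 in the dark-grown libraries, against 0.417, 0.357, 0.377 and 0.477 in the light-grown libraries. Minor antenna counts were thus above major antenna counts in all 4 dark-grown libraries and below them in all 4 light-grown ones. The log2 ratio was 3.26 higher in the dark (exact permutation p = 0.0286, adjusted p = 0.0476), and 3.86 higher without Dark-RNA2, the lowest of the dark-grown libraries. Reads shared between near-identical genes make the major antenna counts uncertain, since 10.6% to 20.5% of the 50-base windows of the LHCB1 genes and 21.9% and 28.2% of those of LHCB2.1 and LHCB2.2 occur elsewhere in the genome.

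One library of each condition lay at an end of the range of its group for every member. On the log2 scale, Dark-RNA2 deviated from the mean of the dark-grown libraries by 0.28 for LHCB4.1, 0.99 for LHCB4.2, 2.12 for LHCB5 and 1.12 for LHCB6. For LHCB4.3 the deviation of Dark-RNA2 was -1.65, so that it was the highest dark-grown library for 4 of the genes and the lowest for the other. Light-RNA4 was the lowest light-grown library for all 5 genes, with deviations of -0.23 for LHCB4.1, -0.50 for LHCB4.2, -0.64 for LHCB4.3, -0.45 for LHCB5 and -0.79 for LHCB6. Light-RNA4 was also the library with the fewest counts. The part of depth or culture in these deviations was not tested. With both libraries left out, an alternative chosen after seeing the data, the log2 fold changes were -2.98 for LHCB4.1, -3.92 for LHCB4.2, -2.01 for LHCB4.3, -7.45 for LHCB5 and -4.58 for LHCB6.

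The other genes of the light-harvesting pathway were examined in 6 lists. Of the 10 other photosystem II antenna genes, 8 were tested and all 8 were called lower in the dark, with a median log2 fold change of -6.46. LHCB2.2, a major antenna gene, stood at the low end, at 0.0158 ± 0.0182 CPM in the dark, where no library held more than 1 count, and 20.1 ± 9.57 CPM in light (SD, n = 4 each; adjusted p = 0.000233 in edgeR's quasi-likelihood test). LHCB7, a relative of the antenna proteins, changed least, at -0.90 on the log2 scale (standard error 0.21, adjusted p = 0.0316 in the same edgeR test). Its level was 4.24 ± 0.91 CPM in the dark and 7.90 ± 1.63 CPM in light (SD, n = 4 each). The call of LHCB7 was lost when any one library other than Dark-RNA2 and Light-RNA4 was left out. LHCB1.2, at -3.36 (adjusted p = 0.018 in the same edgeR test), lost its call without any one of Dark-RNA3, Dark-RNA4, Light-RNA1, Light-RNA2 or Light-RNA3 (adjusted p up to 0.0661), so that 6 of the 8 genes were then called. LHCB1.4 and LHCB2.3 were too low to test in either condition, with no count in the dark and at most 1 count in any light-grown library.

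Among 14 nuclear genes for photosystem II subunits, 13 were tested and all 13 were called lower, with a median log2 fold change of -4.60. They ranged from PSB28, linked to photosystem II assembly, at -2.31 (standard error 0.29, adjusted p = 0.00201 in the same edgeR test) to NPQ4, the PSBS protein of energy-dependent quenching, which held 4 counts over the 4 dark-grown libraries and 67.3 ± 14.2 CPM in light (SD, n = 4). By fitted value LHCB5 had a larger fall than all but 2 of these 13 genes. LHCB4.3, at -2.16 with a standard error of 0.52, could not be ordered against PSB28.

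The genes that carry the antenna proteins to the thylakoid moved unequally. Of 5 genes for import and insertion, 4 were called lower and none higher, with a median log2 fold change of -1.02. LTD, which hands imported antenna proteins to the chloroplast signal recognition particle, stood at 0.0166 ± 0.0331 CPM in the dark, from 2 counts in 1 library, and at 1.26 ± 0.653 CPM in light (SD, n = 4 each; adjusted p = 0.00437 in the same edgeR test). CPSRP43, the subunit of that particle which binds antenna proteins, had a log2 fold change of -3.83. ALB3, the thylakoid insertase, had -0.47 (standard error 0.10, adjusted p = 0.0224 in the same edgeR test), a call lost when any one of Dark-RNA3, Dark-RNA4, Light-RNA1, Light-RNA2 or Light-RNA3 was left out.

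For the pigments that the minor antenna proteins bind, 7 of 9 genes were called lower and none higher, with a median log2 fold change of -1.12. LUT5, a carotene hydroxylase of lutein synthesis, had -2.18 (standard error 0.20, adjusted p = 0.000383 in the same edgeR test), and CAO, which makes chlorophyll b, had -2.04. NYC1 and NOL, the chlorophyll b reductases, both stood at 0.00 with adjusted p-values of 0.994 and 0.999 in the same edgeR test. Nearest to the threshold was the call of HCAR, a reductase of the chlorophyll cycle, at an adjusted p of 0.0431 in the same edgeR test, which was lost when any one library other than Dark-RNA2 and Light-RNA4 was left out. The call of ABA1 was lost without Light-RNA3 (adjusted p up to 0.0546 in the same edgeR test).

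Of 4 genes for the kinases and phosphatases that act on antenna and core proteins, 2 were called lower. STN7, the state transition kinase, was lower by a log2 fold change of -1.30, with a standard error of 0.10 (adjusted p = 0.000233 in the same edgeR test) and TAP38, its opposing phosphatase, had -0.59. STN8, the core protein kinase, had -0.37 (adjusted p = 0.187) and PBCP, the core phosphatase, had -0.41 (adjusted p = 0.465 in the same edgeR test). Both GLK regulators, transcription factors known in Arabidopsis for activating antenna and chlorophyll genes, were called lower. GLK2 had 0.254, 0.716, 0.314 and 0.431 CPM in the dark-grown libraries, against 4.67, 4.22, 4.25 and 2.33 CPM in the light-grown libraries, a difference of -3.17 on the log2 scale (standard error 0.40, adjusted p = 0.00192 in the same edgeR test). GLK1 had -1.78 (adjusted p = 0.0403), a call that held only without Dark-RNA2 when libraries were left out one at a time.

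**Figure D4:**
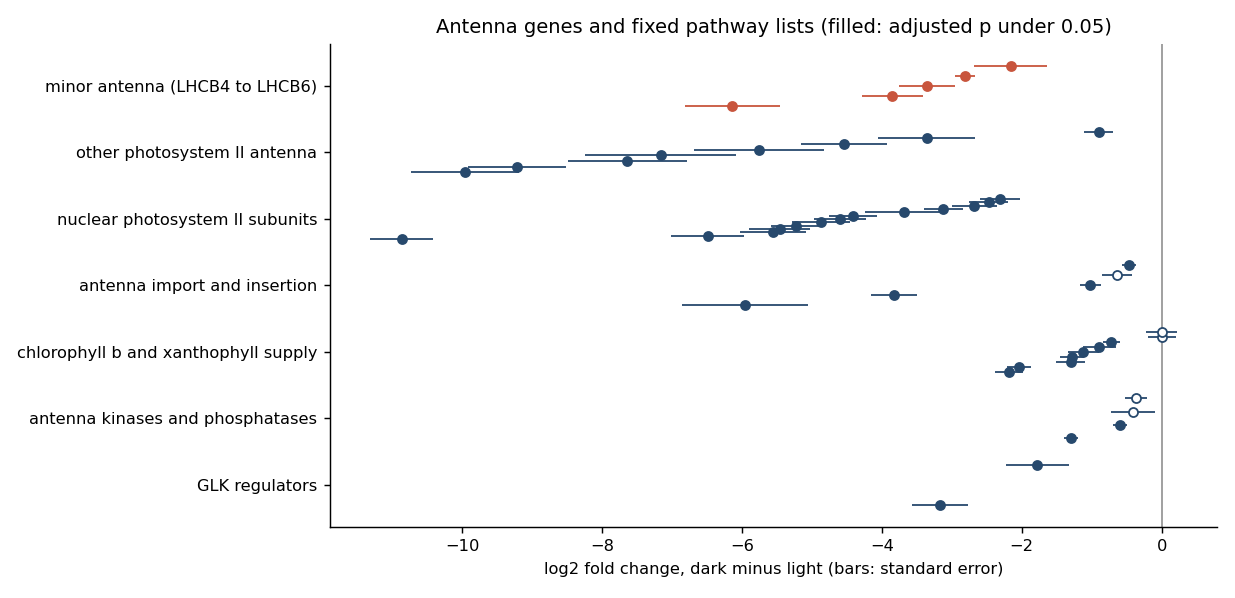
Log2 fold change, dark minus light, of the 5 minor antenna genes and of every tested gene of the 6 lists, with bars for the standard error and filled points for an adjusted p under 0.05 in edgeR's quasi-likelihood test. No gene shown was called higher in the dark, and the minor antenna genes, from -6.14 to -2.16, lie within the range of the other photosystem II antenna genes.

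Likeness to each member was measured over the 8 libraries as the root mean square difference of log2 CPM after centring each gene on its own mean, with a prior count of 2, which draws low genes together. It is given without a test. Nearest to LHCB4.1 were AT4G12490 (0.15), AT3G61870 (0.20) and PETC, the Rieske protein of the cytochrome b6f complex (0.20). AT4G12490 stood at only 0.00814 CPM in the dark and 0.452 CPM in light, with a log2 fold change of -5.22 against the -2.81 of LHCB4.1. PETC had 6.70 CPM in the dark and 47.8 CPM in light, close to the 6.85 and 48.0 CPM of LHCB4.1. Nearest to LHCB4.2 were AT1G77090, annotated as a lumenal PsbP-family protein (0.27), HCEF1, a chloroplast fructose bisphosphatase (0.29), and CT-BMY, a chloroplast beta-amylase (0.29).

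For LHCB5 the nearest genes were RBCS1A, a small subunit of Rubisco (0.27), AT1G32470 (0.31) and PSAK, a photosystem I subunit (0.37). For LHCB6 they were CYP71A25 (0.24), HCEF1 (0.24) and AT5G38980 (0.27). LHCB4.3 was nearest to AT2G40350 (0.35), SSL4 (0.35) and CYP706A5, a cytochrome P450 (0.37), and at 0.78 or more from every other member. Among the members, LHCB4.2 and LHCB6 were the closest pair at 0.39, followed by LHCB4.1 and LHCB4.2 at 0.42, and LHCB5 lay at 1.43 to 2.55 from the others.

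A few markers of differentiated cell types and of dividing cells were examined in these suspension cultures. Of 5 markers of guard cells, trichomes and root hairs, GL1 had no count in any library, FAMA and KAT1 had at most 1 count, and MYB60 and COBL9 were present at 1.06 to 9.71 CPM without being called between conditions. The summed level of the 5 was 9.48 to 11.8 CPM in the dark and 5.88 to 9.57 CPM in light. The 3 markers of dividing cells summed to 118 to 216 CPM in the dark and 171 to 309 CPM in light, and none was called. Their part in the results was not tested.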

How the data were processed

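RNA was measured in 4 dark-grown and 4 light-grown libraries. The deposited table holds whole-number counts per gene and library, which the authors obtained with HTSeq from TopHat2 alignments of paired 50 bp reads (TAIR10, Araport11), neither normalized nor pooled. Versions, counting mode and strand are not given in the sources used here. A second deposited table holds fold changes, p-values and FDR values of the authors' own edgeR comparison and was not used. Chromatin (MNase) samples of the series were left aside.

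Columns were assigned by the sample labels. The main test was the quasi-likelihood test of edgeR 4.0.16 (R 4.3.3), fitted robustly without a block to those counts after TMM scaling. filterByExpr, set to a count of 10 and a total of 15, kept 19129 genes, over which p-values were adjusted (Benjamini-Hochberg, threshold 0.05). The standard error is the size of the log2 fold change over the square root of its F statistic. Exact permutation tests used scipy 1.17.1 on log2 CPM with 0.5 added, or on log2 ratios with 0.5 added to each count. At these depths 3 counts correspond to 0.0942 to 0.0994 CPM in the dark-grown libraries and 0.0779 to 0.159 CPM in the light-grown libraries, which covers counting error only. Each library was counted as 1 sample. Libraries of one condition differed by 23.7 to 132 times the variance of sampling. The closest light-grown pair was Light-RNA2 with Light-RNA3 (23.7, other pairs 57.1 to 95.9). The closest dark-grown pair was Dark-RNA3 with Dark-RNA4 (28.1, other pairs 60.7 to 132). This measure cannot tell whether any shared a culture, which was not tested. Same-numbered libraries did not deviate together in every pair, so the numbers were not taken to pair them.

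All 5 members were among the 19129 genes kept. Named genes are the members, the 3 genes most like each member and the genes of largest and smallest log2 fold change in each list. CPSRP43, CAO, TAP38, PBCP, NYC1, HCAR, ABA1, LHCB1.2, LHCB1.4, LHCB2.3 and the overlapping genes were named after their values were seen. Members and lists were chosen with earlier results of these data known. Names, exon lengths and sequence came from RefSeq TAIR10.1, in which all members and list genes were found. The files carry no coordinates. Alternatives were DESeq2 1.42.0, RLE factors, an unfiltered table, a block for replicate number, each library left out in turn, other pseudocounts and prior counts, and, chosen after seeing the data, Light-RNA4 and Dark-RNA2 left out together.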

Additional observations from a re-analysis of the deposited data

Results flagged for a closer look

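In 20 groups of 4 libraries, made from the levels of the 5 members and the 5 ratios in each condition, a library far from the other 3 was sought with Dixon's criterion, which chance meets in about 1 group in 20. One was found. LHCB6 (AT1G15820) stood at 4.04 CPM in Dark-RNA2, with the other dark-grown libraries between 1.18 and 1.62 CPM, a gap of 0.844 of the whole range. The same library was also the highest of the dark-grown libraries for LHCB4.1, LHCB4.2 and LHCB5. No explanation was tested.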

How the results depend on the processing

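LHCB4.1, LHCB4.2, LHCB5 and LHCB6 kept their direction and stayed past the threshold under all 13 alternatives, with adjusted p-values of at most 0.00864 in edgeR or DESeq2. With each library left out in turn their log2 fold changes ran from -2.91 to -2.76, -3.79 to -3.17, -7.32 to -5.78 and -4.39 to -3.66 in that order, and that of LHCB4.3 from -2.51 to -1.84, with 5 of 8 calls lost. The 4 to 26 counts of LHCB4.3 and the 4 to 59 of LHCB5 per dark-grown library limit the precision of their fold changes. DESeq2, on its own set of genes, called 3356, with 1871 lower and 1485 higher, against 1912, 1207 and 705. Without both Light-RNA4 and Dark-RNA2 the counts were 4850, 2431 lower and 2419 higher. Leaving out 1 library gave 962 to 2873 genes, 689 to 1669 lower and 273 to 1204 higher, and 1 to 2 of the GLK genes lower; the cause was not tested.

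For the ratios, 3 libraries against 4 cannot give an exact permutation p under 0.0571. Differences with 1 library left out ran from 3.30 to 4.43 for LHCB4.1 plus LHCB4.2 over LHCB5, from -3.09 to -2.29 for LHCB5 over LHCB6 and from 2.97 to 3.86 for minor over major antenna, and for the ratios within LHCB4 from 0.47 to 0.86 for LHCB4.1 over LHCB4.2 and from 0.15 to 1.16 for LHCB4.3 over both. Without both Light-RNA4 and Dark-RNA2 they were 4.50, -2.98 and 3.94 (exact permutation p = 0.10 each, the smallest possible). With the replicate number as a block they were 3.86, -2.78 and 3.26, as without it, where an exact sign-flip test of 4 pairs cannot go under 0.125. Deviations of same-numbered libraries correlated at -0.144, 0.582, -0.0248 and 0.219 for replicates 1 to 4, and 3 of 8 libraries correlated best with their own number. The block gave 2221 called genes, kept all 5 members past the threshold, and lost the call of HCAR (adjusted p = 0.0505 in edgeR). Of the 15 places among the most alike genes, 13 were shared with a prior count of 0.5.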
